A study of Homo sapiens with 60 samples.

Results

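HT29 cells exposed for 24 h to the formula Soyo-san at its high dose were compared with HT29 cells given vehicle, over all measured genes. HT29 is an epithelial line established from a human colorectal adenocarcinoma, and Soyo-san is a multi-herb formula of Korean medicine, used here as a hot-water extract. The comparison rests on 6 of the study's 60 libraries, 3 per group, assigned to their groups by their labels. The comparison and the gene lists used below were chosen with earlier results of these data known. The study profiled the mRNA of this line after extracts of single herbs and of formulas, each at 3 doses, by paired-end sequencing of bulk cultures. The 3 high-dose libraries came from cells given 500 µg/mL Soyo-san, and 3 libraries each at 100 µg/mL (medium) and 20 µg/mL (low) give its dose series. Another 3 libraries came from cells given Okbyeongpung-san, another hot-water formula extract, at 500 µg/mL. All these cultures were of the same line, and all were taken at 24 h. The vehicle was DMSO, at 0.1% by the sample characteristics and at 2% by the series' design text. That difference was not settled here, nor do the sample labels state whether extract-treated cells had DMSO too. The labels do not tell whether the replicates were grown separately, so the p-values reflect scatter between libraries, part or all of which could be technical. In the main fit that scatter was estimated over all 57 libraries of the 19 groups with 3 replicates. In such bulk samples a lower level through fewer expressing cells and one through less RNA per cell cannot be told apart.

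Colon epithelial cells carry sensors whose target genes form well known groups. NF-κB is a transcription factor held in the cytoplasm by inhibitor proteins such as NFKBIA. Once released it drives genes of chemokines, adhesion molecules and survival factors, many of which feed back on it. Other sensors that answer to plant compounds are the aryl hydrocarbon receptor (AhR), a ligand-bound transcription factor that drives CYP1 monooxygenases, and NRF2, which is released from KEAP1 by electrophiles and drives glutathione synthesis, NADPH supply and aldehyde and quinone reduction.

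Promoter sequences are shown for 4 genes of these groups that rose against vehicle, to show short NF-κB and NRF2 motifs where they were found. CXCL8, a risen chemokine gene without an NF-κB match, is not shown, nor is any AhR target. The stretches shown are the 250 bases before the RefSeq start site (GRCh38.p14), 5′ to 3′ on the gene's strand. Capitals mark matches to the NF-κB consensus in CXCL1 (chr4:73869143-73869392, plus strand) and BIRC3 (chr11:102317234-102317483, plus strand), and to the antioxidant response element core TGACNNNGC, which NRF2 binds, in GCLM (chr1:93909431-93909680, minus strand) and in one of the TXNRD1 start sites (chr12:104286782-104287031, plus strand).
CXCL1: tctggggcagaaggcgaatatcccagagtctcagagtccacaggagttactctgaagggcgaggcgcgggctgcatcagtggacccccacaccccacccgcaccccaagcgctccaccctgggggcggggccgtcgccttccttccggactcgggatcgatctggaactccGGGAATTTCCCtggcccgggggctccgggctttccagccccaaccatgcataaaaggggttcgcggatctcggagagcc
BIRC3: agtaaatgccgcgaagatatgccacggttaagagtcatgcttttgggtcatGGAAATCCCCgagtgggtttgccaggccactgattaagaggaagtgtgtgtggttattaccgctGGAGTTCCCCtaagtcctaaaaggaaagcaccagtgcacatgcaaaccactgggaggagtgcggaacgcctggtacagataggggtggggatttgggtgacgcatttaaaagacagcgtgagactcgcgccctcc
GCLM: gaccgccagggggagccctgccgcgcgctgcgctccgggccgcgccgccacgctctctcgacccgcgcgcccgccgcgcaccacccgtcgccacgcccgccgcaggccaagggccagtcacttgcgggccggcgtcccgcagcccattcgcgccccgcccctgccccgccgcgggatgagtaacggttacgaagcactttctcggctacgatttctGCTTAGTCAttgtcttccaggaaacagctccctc
TXNRD1: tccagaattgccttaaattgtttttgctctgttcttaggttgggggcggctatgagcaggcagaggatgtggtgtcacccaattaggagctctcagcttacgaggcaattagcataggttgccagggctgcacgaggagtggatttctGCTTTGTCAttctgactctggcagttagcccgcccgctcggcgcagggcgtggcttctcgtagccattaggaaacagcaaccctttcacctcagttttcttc
Both strands of 35116 RefSeq windows of 300 bases (250 before to 50 after a start site) were searched. The NF-κB consensus occurred in 5.91% of them. Among the chemokine and NF-κB genes described below it occurred in 11 of the 15 with a window that rose and in 5 of the 7 with a window that did not. TGACNNNGC occurred in 13.3% of all windows, in 4 of the 11 NRF2 targets with a window that rose (GCLM, TXNRD1, PGD and ME1) and in none of the 5 others. The AhR core GCGTG occurred in 36.5% of all windows, in all 4 risen AhR targets with a window and in 3 of the 4 others. NQO1, of the 4 risen, is on the NRF2 list as well. A gene with several windows counted as matching if any of them matched, while the shares of all windows are per window. The gene counts thus had more openings for a match than those shares. A match describes the letters and does not show binding.

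The Soyo-san high libraries held 21.96 to 28.37 and the vehicle libraries 29.8 to 38.5 counts in all, in units of 1000000. All 16 genes of an epithelial list were measured, with KRT8, an epithelial keratin, highest at up to 7191 CPM (counts per 1000000 counts). Summed markers of fibroblasts lay between 2.81 and 4.70 CPM in the 6 libraries and those of lymphocytes between 0.363 and 0.890 CPM, with COL3A1, CD3D and MS4A1 among those at 0 in all 6. The myeloid and endothelial sums were carried by 1 gene each, LYZ (lysozyme) at up to 1520 CPM and ESAM (an adhesion protein) at up to 47.2 CPM. The libraries of the whole series parted along the numbering of their names on the first principal component (11.6% of variance), with 31 earlier-numbered and 29 later-numbered libraries and 1 change point. The vehicle libraries were all earlier-numbered (-14.4 to -9.54), and those of Soyo-san and Okbyeongpung-san all later-numbered (Soyo-san high 10.2 to 20.0), so that in the direct comparison the extract and the part of the numbering cannot be told apart. Results are therefore also given from a second model that includes the part (the order term). Its estimate rests on Saengmaek-san and Guibi-tang, 2 other formulas with libraries on both sides. Without the order term, a difference between the parts within these groups counts as replicate scatter in all comparisons of the main fit. The common coefficient of variation between replicates was 0.0524 without the order term and 0.0434 with it. What the numbering stands for is not given in the labels. Among the high-dose libraries, the counts of replicate 3 differed from those of replicates 1 and 2 by 4.91 and 4.19 times the chi-square expected of counting noise. That lay within the range of the vehicle and medium-dose pairs (3.57 to 6.25), while replicates 1 and 2 were closer to each other (1.96).

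Between Soyo-san at 500 µg/mL and vehicle, 2466 of 17049 genes differed at an adjusted p under 0.05 (edgeR's quasi-likelihood test). At the high dose 1369 were higher and 1097 lower, together 14.5% of the genes tested (8.03% higher, 6.43% lower). Most changes were small. The median size of the log2 change was 0.22 among the genes that rose and 0.27 among those that fell, and 53 and 48 of them changed by 1 or more. With the order term 1221 genes passed (7.16%), 668 higher (3.92%) and 553 lower (3.24%). Of these, 725 had also passed in the same direction without it, or 29.4% of the 2466. The count was 2375 without high-dose replicate 3 (1343 higher, 1032 lower). It was 1037 without high-dose replicate 1 (506 higher, 531 lower) and 1271 without high-dose replicate 2 (649 and 622). Without vehicle replicates 1, 2 and 3 it was 1406 (735 and 671), 1872 (1030 and 842) and 1554 (845 and 709). These fits tested 17312 to 17354 genes. List counts with 1 library left out, given below, are to be read beside these totals. At lower doses 1682 genes passed against the same vehicle libraries at 100 µg/mL (9.87%; 5.57% higher, 4.29% lower) and 670 at 20 µg/mL (3.93%; 2.04% higher, 1.89% lower). With the order term the medium dose had 506 (2.97%; 1.57% higher, 1.4% lower) and the low dose 665 (3.9%; 1.95% higher and 1.95% lower). The medium count was 806 and 827 without vehicle replicates 1 and 3 and 898 and 653 without medium-dose replicates 1 and 2, and the low count lay between 182 and 415 whichever of its 6 libraries was left out.

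**Figure D1:**
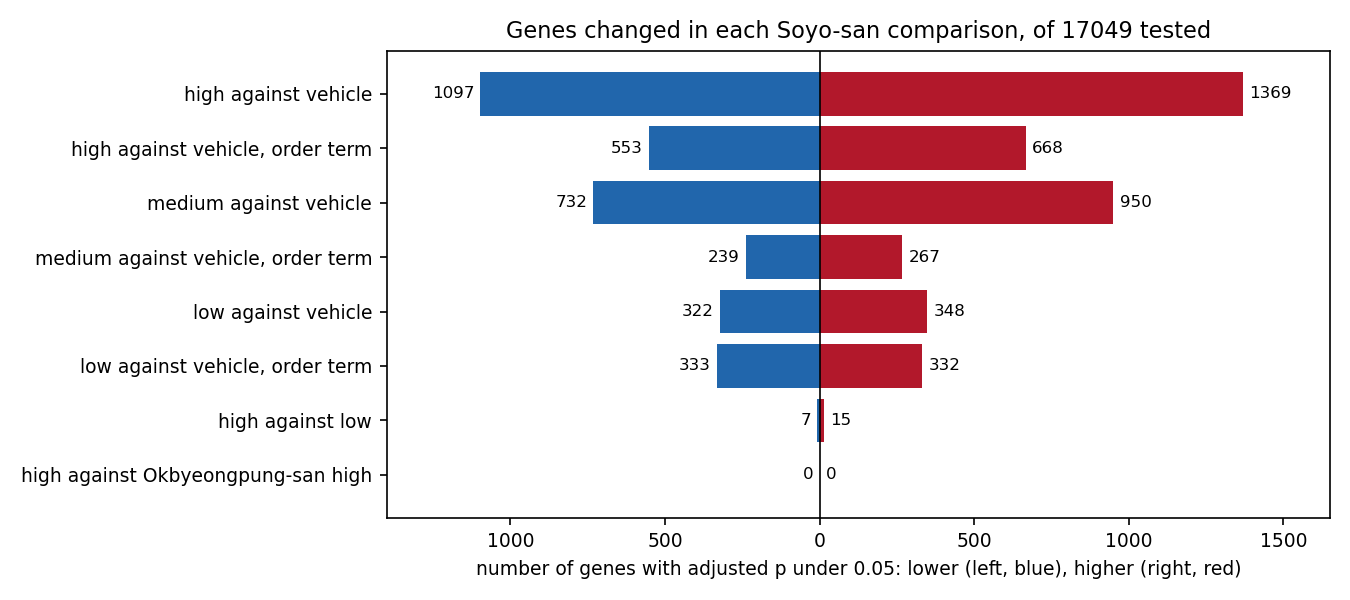
Number of genes with an adjusted p under 0.05 in each comparison of Soyo-san, with genes that fell to the left and genes that rose to the right of 0; the comparisons with vehicle are shown without and with the order term. Against vehicle at the high dose 1369 genes rose and 1097 fell, while 15 rose and 7 fell between the high and the low dose and none passed against Okbyeongpung-san.

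Chemokines and other NF-κB targets led the rises among called protein-coding genes whose groups did not overlap and whose high-dose mean was at least 5 CPM. CXCL1, a chemokine that attracts neutrophils (GRCh38 chr4:73869393-73871242, plus strand, GENCODE 29), stood at 2.22, 2.20 and 1.80 CPM in the vehicle libraries. It stood at 25.9, 24.6 and 24.5 CPM at the high dose. Every high-dose library thus lay far above every vehicle library, a log2 change of 3.59 ± 0.14 (SE; adjusted p = 5.4e-25) and of 3.30 ± 0.14 with the order term (adjusted p = 1.1e-25). CXCL8 (interleukin 8), another neutrophil chemokine, went from 8.00, 7.96 and 7.65 CPM to 26.8, 25.9 and 23.4 CPM, a log2 change of 1.69 ± 0.10. PI3, which encodes the elastase inhibitor elafin, went from 4.40, 4.40 and 4.01 CPM to 23.7, 20.0 and 21.4 CPM, a log2 change of 2.35 ± 0.09. With the order term the log2 changes of CXCL8 and PI3 were 1.55 ± 0.11 and 2.27 ± 0.11. CCL20, a chemokine for lymphocytes and dendritic cells, was low throughout and rose from 0.202, 0.105 and 0.122 CPM to 2.52, 2.77 and 3.54 CPM.

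The rise took in adhesion, survival and feedback genes as well. Of 30 chemokine and NF-κB genes listed, 25 were measured, and 17 of these rose and 1 fell against vehicle, where 8.03% and 6.43% of all genes did. Their median log2 change was 0.73, against 0.00 over all genes tested. With the order term 15 rose and 1 fell (background 3.92% and 3.24%), with a median of 0.60. ICAM1, an adhesion molecule for leukocytes, rose from 3.97, 4.37 and 3.91 CPM to 10.9, 10.1 and 9.03 CPM, a log2 change of 1.29 ± 0.11. BIRC3, an inhibitor of apoptosis, rose from 3.56, 4.92 and 4.10 CPM to 8.93, 10.3 and 7.40 CPM, a log2 change of 1.07 ± 0.12. ZC3H12A, a ribonuclease that degrades cytokine transcripts, rose by 0.71 ± 0.06 on the log2 scale. In all 3 genes the groups did not overlap, and with the order term the changes were 1.11 ± 0.12, 0.93 ± 0.14 and 0.60 ± 0.07. Chosen after their values were seen, CXCL2 and CXCL3, close relatives of CXCL1 between which shared reads are divided, rose by 1.62 ± 0.21 and 2.39 ± 0.18, the inhibitor NFKBIA by 0.45 ± 0.06 and the iron-chelator carrier LCN2 by 0.58 ± 0.09. The 1 member that fell was NFKBIZ, a nuclear co-regulator of NF-κB, at -0.38 ± 0.06. Leaving out each of the 6 libraries in turn left 15 to 17 members higher, and 17 without high-dose replicate 3. Of 11 genes of enterocyte differentiation 2 rose and none fell, with a median log2 change of -0.10. The order term left 1 higher and 1 lower (median -0.15), and 1 rose without high-dose replicate 1 or 2 or vehicle replicate 1. One of the risen was CEACAM7, an adhesion protein of colon epithelium, which went from 0.437, 0.236 and 0.245 CPM to 1.12, 1.21 and 0.999 CPM.

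At 20 µg/mL the chemokines were already well above vehicle. CXCL1 stood at 16.8, 17.2 and 18.3 CPM at the low dose and at 24.3, 24.1 and 20.1 CPM at the medium dose. Against vehicle, its log2 change was 3.07 at the low, 3.46 at the medium and 3.59 at the high dose. The list as a whole had a median log2 change of 0.63 at the low dose (14 higher, 1 lower; background 2.04% and 1.89%), 0.70 at the medium dose (17 higher, 1 lower; background 5.57% and 4.29%) and 0.73 at the high dose. These 3 comparisons share their vehicle libraries. Across the 57 libraries of all groups with 3 replicates, CXCL1 lay between 15.4 and 31.5 CPM in the 27 libraries of Soyo-san, Okbyeongpung-san and Guibi-tang. It lay between 1.14 and 2.62 CPM in the 30 libraries of vehicle and the other extracts. The earlier-numbered Guibi-tang high libraries were among the high ones, at 27.1 and 27.3 CPM, and the later-numbered Saengmaek-san high library among the low ones, at 2.45 CPM. The later-numbered Saengmaek-san libraries (2.45, 2.42 and 2.31 CPM) lay above the earlier-numbered ones (1.14 to 1.56 CPM).

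Interferon-response genes were also higher at the high dose. All 20 listed genes were measured, and 16 rose and none fell against vehicle (background 8.03% and 6.43%), with a median log2 change of 0.41, or 0.38 with the order term, where 10 rose (background 3.92%). IFIH1, a sensor of double-stranded RNA, rose from 6.55, 6.99 and 7.25 CPM to 10.9, 9.68 and 10.2 CPM, a log2 change of 0.57 ± 0.09. IFIT3, an interferon-induced inhibitor of viral RNA translation, rose by 0.41 ± 0.09. MX1, an antiviral GTPase, went from 3.66, 3.46 and 3.43 CPM to 9.04, 4.71 and 5.86 CPM, with replicate 1 well above the other two. Without replicate 1 its log2 change moved from 0.91 ± 0.20 to 0.58 and no longer passed (adjusted p = 0.09), and 4 of the 20 genes were higher in place of 16. Over all genes, the number higher went from 1369 of 17049 to 506 of 17354 without replicate 1. Without replicate 3, 14 of the 20 were higher. At the low dose the list's median log2 change was already 0.44 (14 higher, background 2.04%), and between the high and the low dose it was -0.01, with none called.

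**Figure D2:**
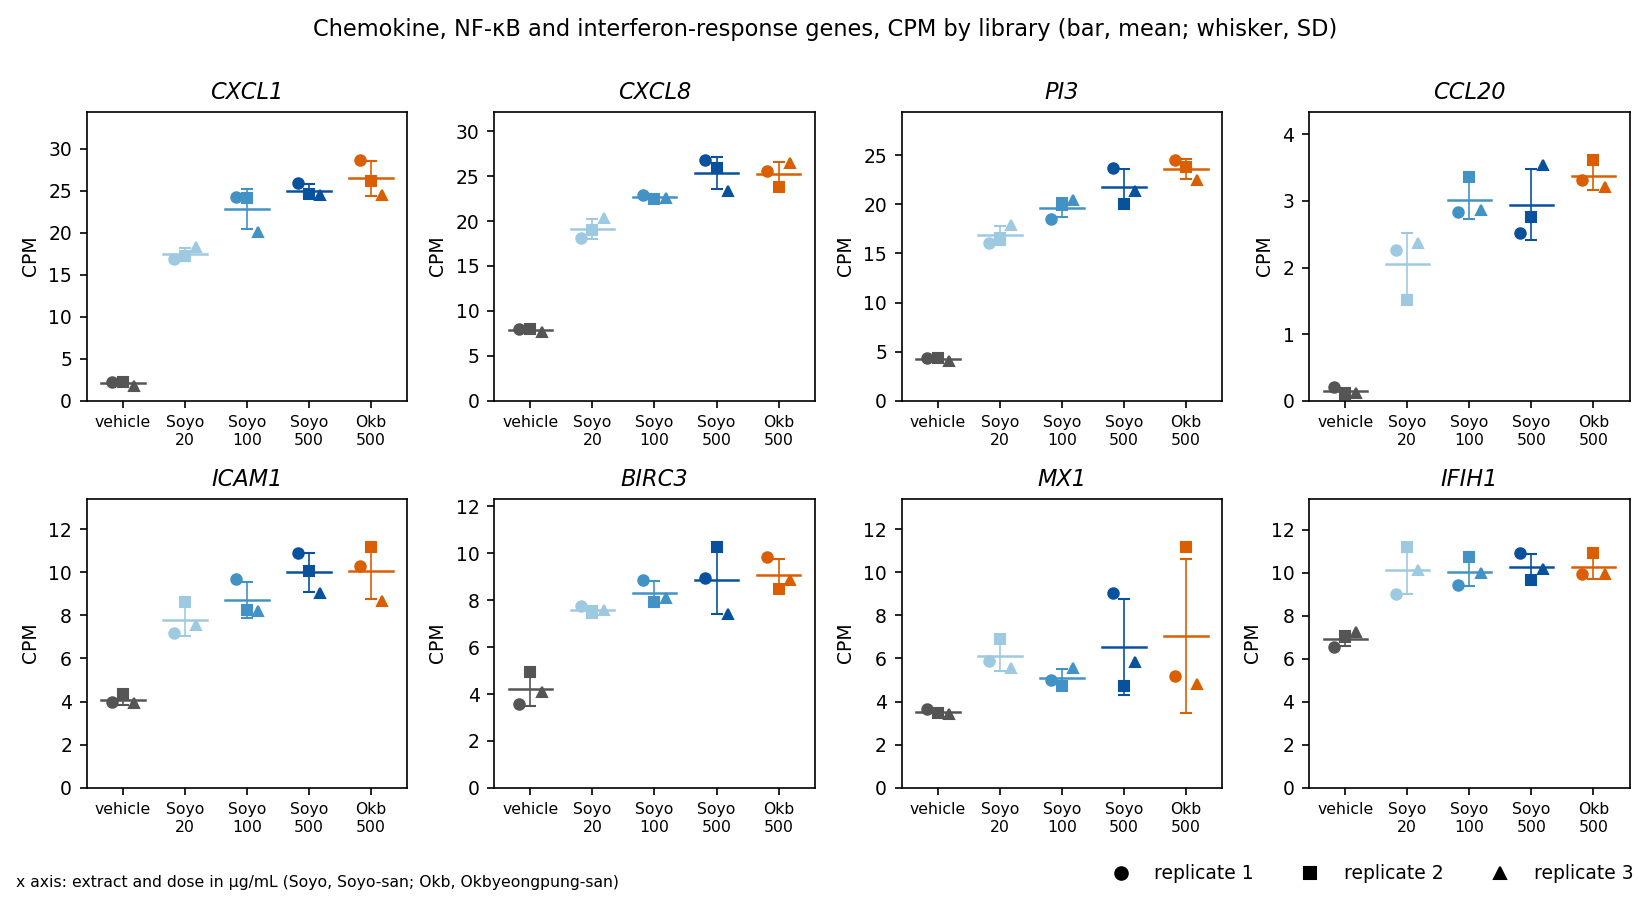
CPM of 6 chemokine and NF-κB genes and 2 interferon-response genes in each library of vehicle, Soyo-san at 20, 100 and 500 µg/mL and Okbyeongpung-san at 500 µg/mL (points, replicates; horizontal line, mean; whisker, SD). CXCL1 steps from 2.22 CPM or less in vehicle to 16.8 CPM or more in every treated library, and MX1 replicate 1 at 500 µg/mL lies at 9.04 CPM.

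NRF2 targets rose by smaller amounts. All 26 listed genes were measured; 16 rose and 1, the efflux pump ABCC3, fell against vehicle (background 8.03% and 6.43%), with a median log2 change of 0.28, and with the order term 14 rose and none fell (background 3.92%), with a median of 0.29. In glutathione synthesis, GCLC, the catalytic subunit of glutamate-cysteine ligase, went from 73.9, 78.5 and 78.7 CPM to 119, 115 and 99.0 CPM, a log2 change of 0.53 ± 0.06 (adjusted p = 1.8e-09; 0.45 ± 0.06 with the order term). Its modifier subunit GCLM went from 46.3, 54.9 and 60.7 CPM to 73.3, 80.4 and 69.0 CPM, a log2 change of 0.46 ± 0.08 (0.54 ± 0.09 with the order term). SLC7A11, the cystine importer that feeds this pathway, went from 97.2, 132 and 139 CPM to 187, 191 and 156 CPM, and did not pass without vehicle replicate 1 (adjusted p = 0.084). In these 3 genes no vehicle library reached the lowest high-dose library. Of the 19 groups with 3 replicates, vehicle had the lowest mean of GCLC and of GCLM. Means above vehicle were thus shared by all extracts and doses in the fit, and Soyo-san high ranked 2 for GCLC and 6 for GCLM.

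Among the reductases, TXNRD1, a selenium-containing thioredoxin reductase, rose from 327, 317 and 321 CPM to 461, 424 and 378 CPM, a log2 change of 0.39 ± 0.05. AKR1B10, an aldo-keto reductase, went from 100, 98.2 and 103 CPM to 158, 155 and 110 CPM, a log2 change of 0.50 ± 0.10. AKR1C2 and AKR1C1, near-identical hydroxysteroid reductases between which shared reads are divided, rose by 0.66 ± 0.11 and 0.53 ± 0.08. In TXNRD1, AKR1B10 and AKR1C2 replicate 3 was the lowest of the high-dose libraries, yet above every vehicle library. Vehicle also had the lowest of the 19 group means of TXNRD1 and AKR1C2, and ranked 17 for AKR1B10. Soyo-san high ranked 3 for each of these genes. NQO1, a quinone reductase chosen after its values were seen, rose by 0.21 ± 0.05 and did not pass without high-dose replicate 1 (adjusted p = 0.066). HMOX1, haem oxygenase, stood at 10.99, 10.4 and 9.79 CPM in vehicle and at 14.6, 12.1 and 10.8 CPM at the high dose and did not pass (log2 change 0.28 ± 0.10, adjusted p = 0.064), while with the order term it did (0.39 ± 0.12, adjusted p = 0.035). Without replicate 3, 19 of the 26 NRF2 targets were higher (1343 of all 17344 genes), and without replicate 1, 12 were (506 of all 17354). In a fit on the 6 libraries alone AKR1B10, AKR1C2 and SLC7A11 did not pass (adjusted p = 0.11, 0.076 and 0.12).

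Most measured AhR targets rose too. Of 12 listed, 10 were measured, and 6 rose and none fell (background 8.03% and 6.43%), with a median log2 change of 0.24. With the order term 6 rose and 1 fell (background 3.92% and 3.24%), with a median of 0.29. NQO1 is on both lists and is counted among the risen AhR targets and the risen NRF2 targets. CYP1A1 (chr15:74719542-74725610, minus strand), the monooxygenase most used as a readout of this receptor, went from 0.336, 0.576 and 0.550 CPM to 2.20, 2.38 and 1.09 CPM, a log2 change of 1.94 ± 0.29 (adjusted p = 5.9e-06; 1.72 ± 0.35 with the order term). CYP1B1, its relative, was far more abundant and went from 45.2, 44.6 and 45.0 CPM to 66.5, 67.1 and 51.0 CPM, a log2 change of 0.46 ± 0.07. Both genes were highest in replicates 1 and 2, with replicate 3 between these and vehicle. UGT1A6, a glucuronosyltransferase that shares exons with its UGT1A neighbours, rose by 0.33 ± 0.07, and ALDH3A1, an aldehyde dehydrogenase, by 0.52 ± 0.10. TIPARP, a feedback inhibitor of the receptor chosen after its values were seen, rose by 0.27 ± 0.06. Of 13 retinoid metabolism genes 5 rose and 1 fell, with a median log2 change of -0.05. The order term left 2 higher and 2 lower (background 3.92% and 3.24%; median 0.06), and 3 rose without high-dose replicate 1. Of those that rose, ALDH1A3, which makes retinoic acid, went from 23.2, 24.2 and 23.5 CPM to 36.7, 34.6 and 27.5 CPM, and the retinol dehydrogenase DHRS9 rose by 1.12 ± 0.26, which did not pass without high-dose replicate 1 (adjusted p = 0.053). In the fit on the 6 libraries alone ALDH3A1 and UGT1A6 did not pass (adjusted p = 0.12 and 0.057).

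Between 500 and 20 µg/mL, all libraries compared being later-numbered, 22 genes differed (0.129% of those tested), 15 higher (0.088%) and 7 lower (0.0411%) at the high dose. NRF2 targets gave 5 of the 15 that rose (background 0.088%), AhR targets 2 and the chemokine and NF-κB list 3. The other members of these lists did not pass, and median log2 changes were 0.20 for NRF2 targets, 0.20 for AhR targets and 0.09 for the chemokine and NF-κB list, against 0.00 over all genes. CYP1A1 stood at 0.613, 0.548 and 0.351 CPM at the low dose, overlapping vehicle, and rose by 1.89 ± 0.30 on the log2 scale from there to the high dose (adjusted p = 0.0014). GPAT3, an enzyme of triglyceride synthesis, stood at 15.9, 15.4 and 14.9 CPM at the low and 22.6, 21.6 and 17.8 CPM at the high dose, a log2 change of 0.43 ± 0.07. GCLC stood at 88.9, 91.0 and 86.3 CPM at the low dose, between vehicle and the high dose, and rose from there by 0.32 ± 0.06. AKR1B10 stood at 102, 96.9 and 106 CPM at the low dose, overlapping vehicle, and AKR1C2 at 15.6, 16.6 and 16.3 CPM. Their log2 changes from the low to the high dose were 0.47 ± 0.10 and 0.52 ± 0.11. In each of these 5 genes replicate 3 was the high-dose library nearest to the low-dose libraries. The other genes with a known part in detoxification were ALDH1A3 (0.39 ± 0.08), GCLM (0.36 ± 0.08), UGT1A6 (0.30 ± 0.07) and TXNRD1 (0.25 ± 0.05). CXCL1, CXCL8 and PI3 rose between these doses by 0.52 ± 0.11, 0.41 ± 0.09 and 0.37 ± 0.08. HSPA5, the main chaperone of the endoplasmic reticulum, was lower at the low dose (415, 422 and 428 CPM) than at the high dose (532, 517 and 469 CPM), by 0.26 ± 0.05 on the log2 scale.

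**Figure D3:**
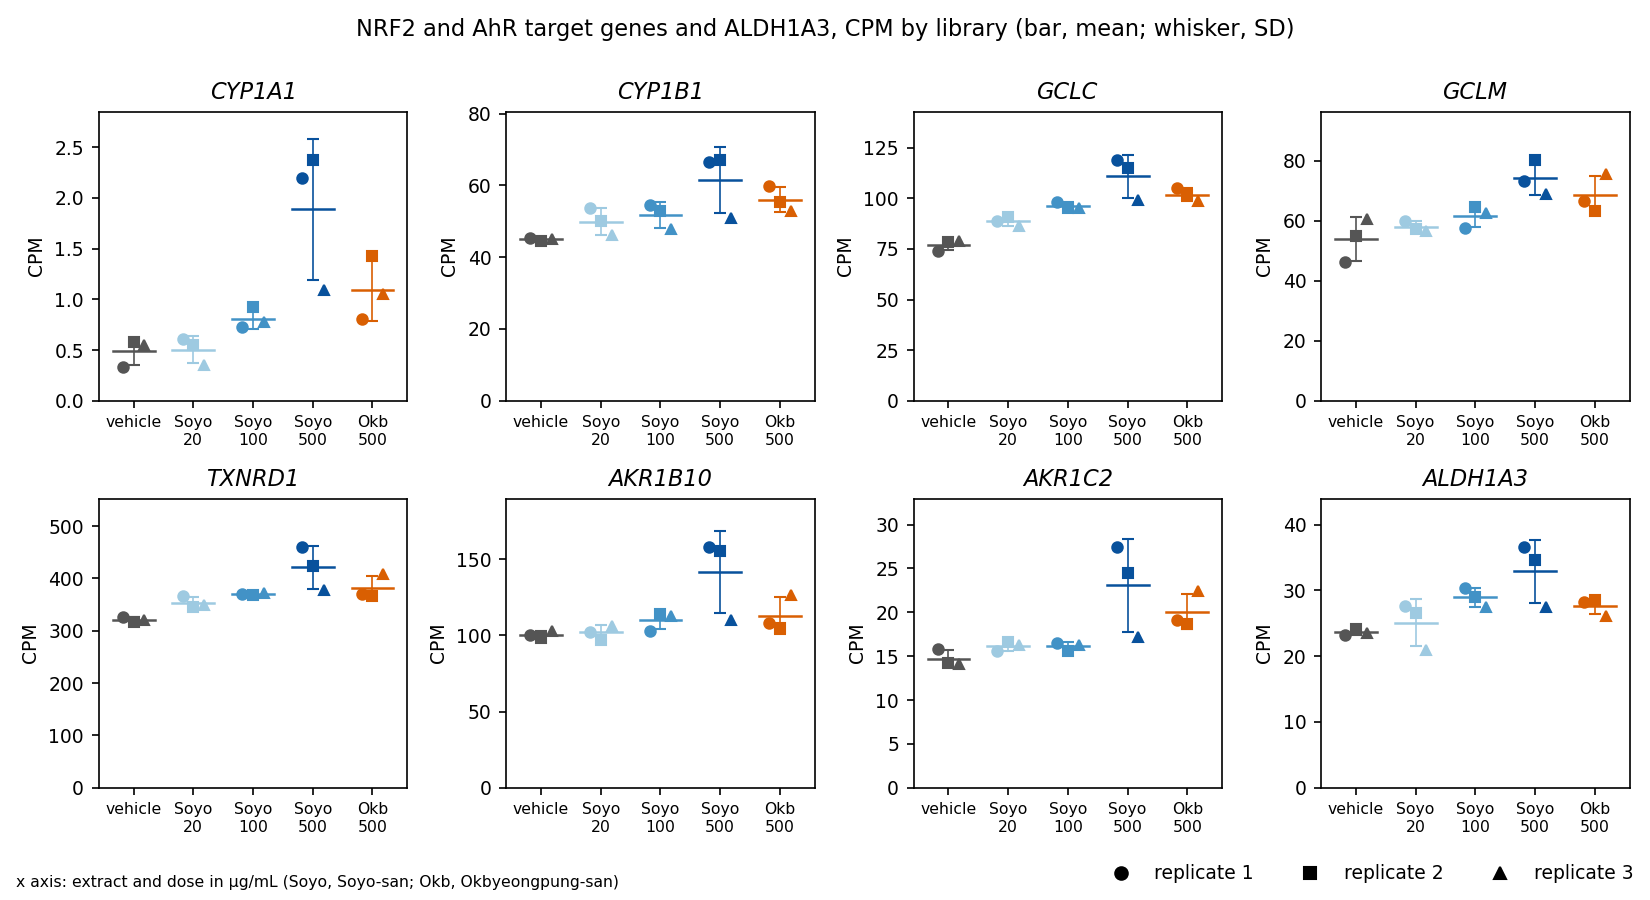
CPM of 7 NRF2 and AhR targets and of ALDH1A3 in each library of vehicle, Soyo-san at 20, 100 and 500 µg/mL and Okbyeongpung-san at 500 µg/mL (points, replicates; horizontal line, mean; whisker, SD). Replicates 1 and 2 at 500 µg/mL stand above all low-dose libraries, and replicate 3 lies lower, for AKR1B10 at 110 against 158 and 155 CPM.

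Of the genes that fell from the low to the high dose, BTG2, an antiproliferative immediate early gene, went from 33.7, 34.5 and 38.5 CPM to 28.3, 27.3 and 29.9 CPM, a log2 change of -0.32 ± 0.06. TPPP3, a tubulin-binding protein, changed by -0.34 ± 0.08, the zinc finger gene ZNF704 by -0.38 ± 0.08, the solute carrier SLC22A23 by -0.27 ± 0.06 and the lectin-like CLEC3A by -0.22 ± 0.05. The next count covers only protein-coding genes without overlap between vehicle and high dose, whose larger group mean was no smaller than 5 CPM. In 14 of them a change in the same direction passed against vehicle, with the order term and against the low dose. Of these, 12 were higher (the 10 largest being CXCL1, PI3, CXCL8, AKR1C2, GCLC, AKR1B10, ALDH1A3, GCLM, TXNRD1 and GPAT3) and 2 lower (TPPP3 and BTG2). CYP1A1, with a high-dose mean of 1.89 CPM, lay below that floor and was not counted. TPPP3 did not pass against vehicle without high-dose replicate 1 or 2 or vehicle replicate 1 (adjusted p = 0.062, 0.095 and 0.057). These comparisons share the high-dose libraries. The 22 calls rested on few libraries: without high-dose replicate 3 there were 80, and without replicate 1 or replicate 2 there were none by edgeR (888 and 963 genes at an unadjusted p under 0.05). Without the low-dose replicates 1, 2 and 3 there were 12, 9 and 4. DESeq2 on all libraries called 37.

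Okbyeongpung-san at the same 500 µg/mL gave levels that could not be parted from those of Soyo-san at this number of libraries. None of 17049 genes differed by edgeR (0.0%; smallest adjusted p = 0.0747), 760 had an unadjusted p under 0.05 (4.46%), and DESeq2 called 2. Without Soyo-san replicate 3, 10 genes differed. CXCL1 stood at 28.7, 26.2 and 24.5 CPM with Okbyeongpung-san, a log2 difference (Soyo-san minus Okbyeongpung-san) of -0.08 ± 0.11. CYP1A1 stood at 0.808, 1.42 and 1.05 CPM, a log2 difference of 0.79 ± 0.27 that did not pass, and AKR1B10 at 108, 105 and 127 CPM, a difference of 0.33 ± 0.10 that did not pass. The libraries overlapped for both genes. In the order of the 19 group means, Soyo-san high was the second highest for CYP1A1, well below the herb Menthae Herba at its high dose (6.71, 5.71 and 5.98 CPM) and next to the herb Saposhnikoviae Radix at its high dose (1.59, 1.25 and 1.40 CPM), whose range overlapped its own.

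Of the called protein-coding genes whose groups did not overlap and whose vehicle mean was at least 5 CPM, the 10 that fell most were of differing function, EGR1 among them. PRR36, a proline-rich protein gene, went from 10.5, 9.43 and 10.3 CPM to 4.79, 4.36 and 5.13 CPM, a log2 change of -1.08 ± 0.15 (adjusted p = 1e-06; -0.95 ± 0.17 with the order term). SLC14A1, a urea transporter, went from 5.28, 5.94 and 5.38 CPM to 1.94, 3.02 and 3.13 CPM, a log2 change of -1.06 ± 0.13. CD200, a membrane glycoprotein that restrains myeloid cells, went from 5.07, 5.21 and 4.95 CPM to 1.98, 3.28 and 3.22 CPM, a log2 change of -0.86 ± 0.15. Low-dose values of PRR36 (7.62, 5.86 and 6.85 CPM) lay between those of vehicle and of the high dose. Lower PRR36 was not particular to Soyo-san. Over all doses, every library of Guibi-tang, Menthae Herba, Saengmaek-san and Saposhnikoviae Radix lay below every vehicle library (highest 8.52, 8.47, 8.29 and 8.40 CPM). Okbyeongpung-san (5.16 to 10.7 CPM) overlapped vehicle. SELENOW, a small selenoprotein, went from 139, 133 and 138 CPM to 76.6, 75.2 and 105 CPM, with replicate 3 again nearest to vehicle, a log2 change of -0.68 ± 0.08. Of the 19 group means of SELENOW, that of vehicle was the highest and that of Soyo-san high the lowest. SELENON, a selenoprotein of the endoplasmic reticulum, changed by -0.61 ± 0.11. Of the 20 selenoprotein genes measured 4 rose and 3 fell (background 8.03% and 6.43%; 1 and 3 without high-dose replicate 1), TXNRD1 being among those that rose. PIGZ, a mannosyltransferase of membrane anchors, changed by -0.59 ± 0.11 (-0.50 ± 0.12 with the order term). MOGAT3 (-0.63 ± 0.14), an acyltransferase, and the homeobox gene HOXB2 (-0.60 ± 0.16) were lower too, but not past the threshold with the order term (-0.45, adjusted p = 0.07, and -0.31, adjusted p = 0.29) nor without high-dose replicate 1 (adjusted p = 0.078 and 0.054).

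Some immediate early genes, which cells switch on within minutes of a growth signal, were lower. Of 23 measured, 5 fell, none rose and 18 did not pass (background 6.43% and 8.03%), with a median log2 change of -0.17; with the order term 9 fell (background 3.24%), with a median of -0.25. EGR1 (chr5:138465490-138469315, plus strand), a zinc finger transcription factor, stood at 52.2, 48.3 and 49.5 CPM in vehicle and at 26.5, 26.8 and 27.4 CPM at the high dose, a log2 change of -0.89 ± 0.13 (adjusted p = 1.1e-05; -0.94 ± 0.16 with the order term). FOS, a subunit of AP-1, went from 22.4, 18.7 and 21.7 CPM to 14.8, 13.7 and 15.4 CPM, a log2 change of -0.51 ± 0.09. Neither gene's groups overlapped. KLF6, a Krüppel-like factor, changed by -0.30 ± 0.04, the phosphatase DUSP1 by -0.56 ± 0.11 and BTG2 by -0.26 ± 0.06. EGR1 was as low at 20 µg/mL (27.8, 26.2 and 32.6 CPM), with a log2 difference of -0.10 ± 0.14 between the doses. For both EGR1 and FOS vehicle had the highest of the 19 group means, so means below vehicle were not particular to Soyo-san. Menthae Herba high came nearest to vehicle, at means of 47.4 and 20.7 CPM. Leaving out each of the 6 libraries in turn left 5 or 6 of the list lower.

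A few goblet cell and mucin genes, of which HT29 expresses several, were lower as well. Of 15 goblet and secretory genes measured, 4 fell, none rose and 11 did not pass (background 6.43% and 8.03%). Their median log2 change was -0.34, or -0.37 with the order term, where 5 fell (background 3.24%). MUC2, the gel-forming mucin of the colon, lay between 28.5 and 30.5 CPM (mean 29.3) in the vehicle libraries and at 17.2, 17.0 and 18.3 CPM at the high dose, a log2 change of -0.74 ± 0.16 (adjusted p = 0.0014; -0.65 ± 0.19 with the order term). At 20 µg/mL MUC2 stood between vehicle and the high dose, at 22.7, 20.7 and 22.6 CPM, and at 100 µg/mL at 18.1, 18.5 and 21.1 CPM. The high-dose and low-dose values did not overlap, yet the difference between them did not pass (-0.33 ± 0.16). Vehicle had the highest of the 19 group means of MUC2, so a mean below vehicle was shared by all extracts and doses in the fit. Soyo-san high ranked 18, above Menthae Herba high (17.4 CPM). REG4, a secreted lectin, changed by -0.52 ± 0.07, CREB3L1, a transcription factor of secretory cells, by -0.40 ± 0.09, and AGR2, a disulfide isomerase that mucin folding needs, by -0.18 ± 0.05, which did not pass without high-dose replicate 1 (adjusted p = 0.11) or 2 (adjusted p = 0.069). Among the 8 membrane mucins, 3 fell, 1 with the order term, and 1 without high-dose replicate 2. MUC3A went from 36.1, 35.9 and 37.2 CPM to 21.7, 23.1 and 29.1 CPM, a log2 change of -0.57 ± 0.11. Of 15 WNT targets 5 fell and none rose, with a median of -0.13, and 4 fell with the order term. SOX9, a transcription factor of crypt cells, changed by -0.25 ± 0.06 (-0.40 ± 0.05 with the order term) and the guidance receptor EPHB3 by -0.31 ± 0.06 (-0.30 ± 0.07).

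**Figure D4:**
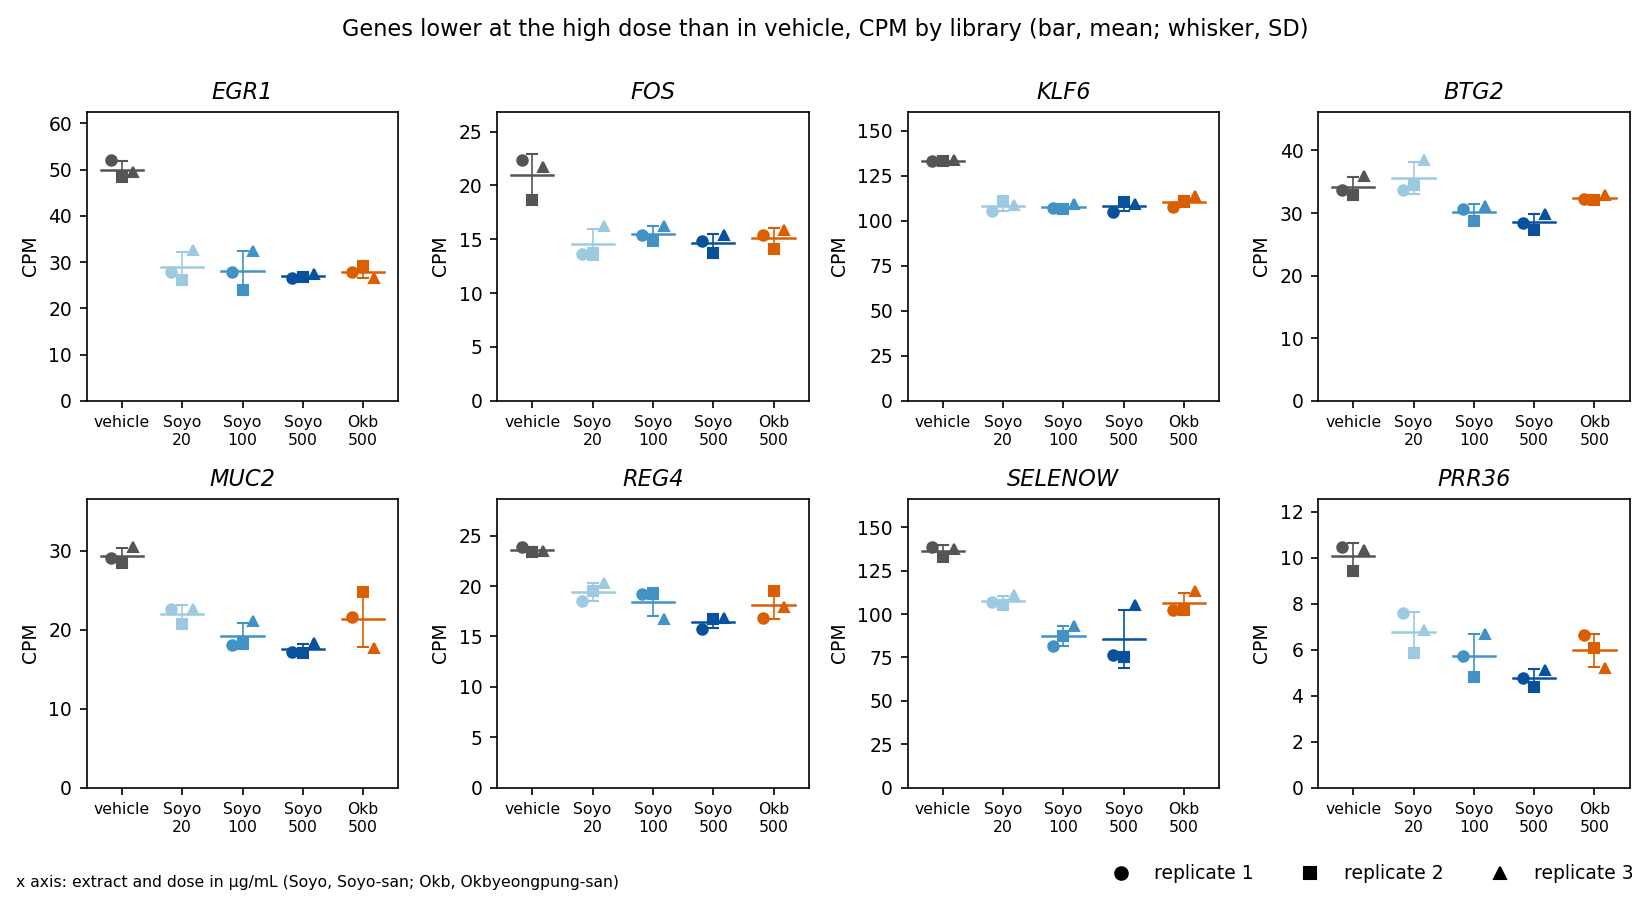
CPM of 8 genes that were lower at 500 µg/mL Soyo-san than in vehicle, in each library of vehicle, Soyo-san at 20, 100 and 500 µg/mL and Okbyeongpung-san at 500 µg/mL (points, replicates; horizontal line, mean; whisker, SD). EGR1, FOS and KLF6 were low at every dose, BTG2 fell from the low to the high dose, and for SELENOW replicate 3 at 500 µg/mL lies at 105 CPM.

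Genes of growth and protein making were called mainly in the fit without the order term. Of 30 genes of MYC and ribosome biogenesis 18 rose (background 8.03%), with a median log2 change of 0.21. With the order term 6 rose and 1 fell (background 3.92% and 3.24%), with a median of 0.11. BOP1, needed to process ribosomal RNA, rose by 0.31 ± 0.06, and by 0.28 ± 0.07 with the order term. NCL (nucleolin), chosen after its values were seen, rose by 0.45 ± 0.12, but its log2 change with the order term was 0.10 (adjusted p = 0.54). MYC itself, the growth-driving transcription factor, stood at 316, 311 and 304 CPM in vehicle and at 280, 301 and 267 CPM at the high dose. Its log2 change of -0.13 ± 0.08 did not pass (adjusted p = 0.24), while with the order term it was -0.37 ± 0.06 and passed (adjusted p = 6.9e-06). Of 40 ribosomal protein genes 3 rose, no larger a share than the background of 8.03%. The count was 1 without high-dose replicate 1, high-dose replicate 2 or vehicle replicate 2. None rose with the order term, and the median went from 0.12 to -0.02. Without high-dose replicate 1, 10 of the 30 ribosome biogenesis genes were higher (506 of all 17354 genes), and 18 without replicate 3 (1343 of all 17344).

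Some replication genes rose by small amounts. Of 32 G1/S and DNA replication genes 14 rose, none fell and 18 did not pass (background 8.03% and 6.43%), with a median log2 change of 0.13, and 9 rose with the order term (background 3.92%), with a median of 0.12. MCM2, a subunit of the replicative helicase, went from 221, 221 and 213 CPM to 285, 269 and 247 CPM, a log2 change of 0.29 ± 0.04 (0.26 ± 0.05 with the order term). UHRF1, which keeps DNA methylation through replication, rose by 0.28 ± 0.04 (0.25 ± 0.05). The proliferation marker MKI67 did not pass (0.10 ± 0.09, adjusted p = 0.53; -0.09 with the order term), nor did the cell-cycle inhibitor CDKN1A (-0.15 ± 0.10, adjusted p = 0.38; 0.09 with the order term). Of 28 proteasome subunits 13 rose and 9 with the order term, with medians of 0.15 and 0.12, and PSMC3 rose by 0.41 ± 0.06 (0.24 ± 0.05). Leaving out high-dose replicate 1 left 7 replication genes and 6 proteasome subunits higher, beside 506 of all 17354 genes. The proteasome count was 6 without high-dose replicate 2, 7 without vehicle replicate 1 and 8 without vehicle replicate 3.

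Chaperone genes moved both ways, and their counts turned with the order term. Of 20 genes of the unfolded protein response 8 rose and 1 fell (background 8.03% and 6.43%). With the order term none rose and 2 fell (background 3.92% and 3.24%). The 8 were 3, 4, 5 and 3 without high-dose replicate 1 or 2 or vehicle replicate 1 or 3. HSPA5 rose by 0.16 ± 0.05 without the order term, a call lost without any 1 of 5 libraries (all but high-dose replicate 3), and stood at 0.05 with it (adjusted p = 0.68), while HERPUD1, of the degradation of misfolded proteins, was lower in both fits (-0.25 ± 0.05 and -0.21 ± 0.06). Of 19 heat shock genes 4 rose and 2 fell, with a median log2 change of 0.01. The order term left 1 higher and 7 lower (background 3.92% and 3.24%), with a median of -0.12. In the fit without it, 2 rose without high-dose replicate 1 or 2 or vehicle replicate 1 or 3. DNAJB1, a heat shock co-chaperone, went from 106, 104 and 103 CPM to 83.7, 85.4 and 77.5 CPM, a log2 change of -0.34 ± 0.04 (-0.39 ± 0.05 with the order term). CLK1, a kinase of splicing factors, rose from 30.9, 33.5 and 31.8 CPM to 45.6, 48.1 and 47.6 CPM, a log2 change of 0.55 ± 0.06 (0.41 ± 0.06 with the order term). It was as high at the low dose (50.3, 51.2 and 46.0 CPM). CLIP4, a microtubule-binding protein gene, rose by 0.76 ± 0.10 (0.97 ± 0.11 with the order term). BEST1, a chloride channel gene, and FMC1-LUC7L2, a read-through of neighbouring genes whose reads are divided with both, rose by 0.84 ± 0.23 and 0.75 ± 0.25 without the order term and did not pass with it (0.25, adjusted p = 0.51, and 0.05, adjusted p = 0.93). BEST1 also missed the threshold without vehicle replicate 2 (adjusted p = 0.052) and FMC1-LUC7L2 without any 1 of 5 libraries, all but high-dose replicate 3. TXNIP, a thioredoxin-binding gene induced by glucose, changed by -0.25 ± 0.06 (-0.29 ± 0.07) and did not pass without high-dose replicate 1 (adjusted p = 0.065).

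Mitochondrially encoded transcripts took 12.8% to 13.5% of counts in the vehicle libraries and 10.6% to 11.1% at the high dose. Of the 13 genes 7 were lower and none higher (background 6.43% and 8.03%), with a median log2 change of -0.32. With the order term 1 was lower (background 3.24%), with a median of -0.34. MT-CO2, of cytochrome c oxidase, changed by -0.42 ± 0.11 (-0.47 ± 0.14 with the order term), and MT-ND4L, of complex I, by -0.53 ± 0.13 (-0.23 with the order term, adjusted p = 0.26). Leaving out any 1 library left 2 to 5 of them lower: without high-dose replicates 1, 2 and 3 there were 2, 3 and 5, and omitting vehicle replicates 1, 2 and 3 gave 4, 4 and 3. Of 40 nuclear genes of oxidative phosphorylation 2 rose and none fell, and none rose without high-dose replicate 1. The share was as low at 20 µg/mL (10.5% to 11.04%). The part of RNA quality or of library making in this share was not tested.

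**Figure D5:**
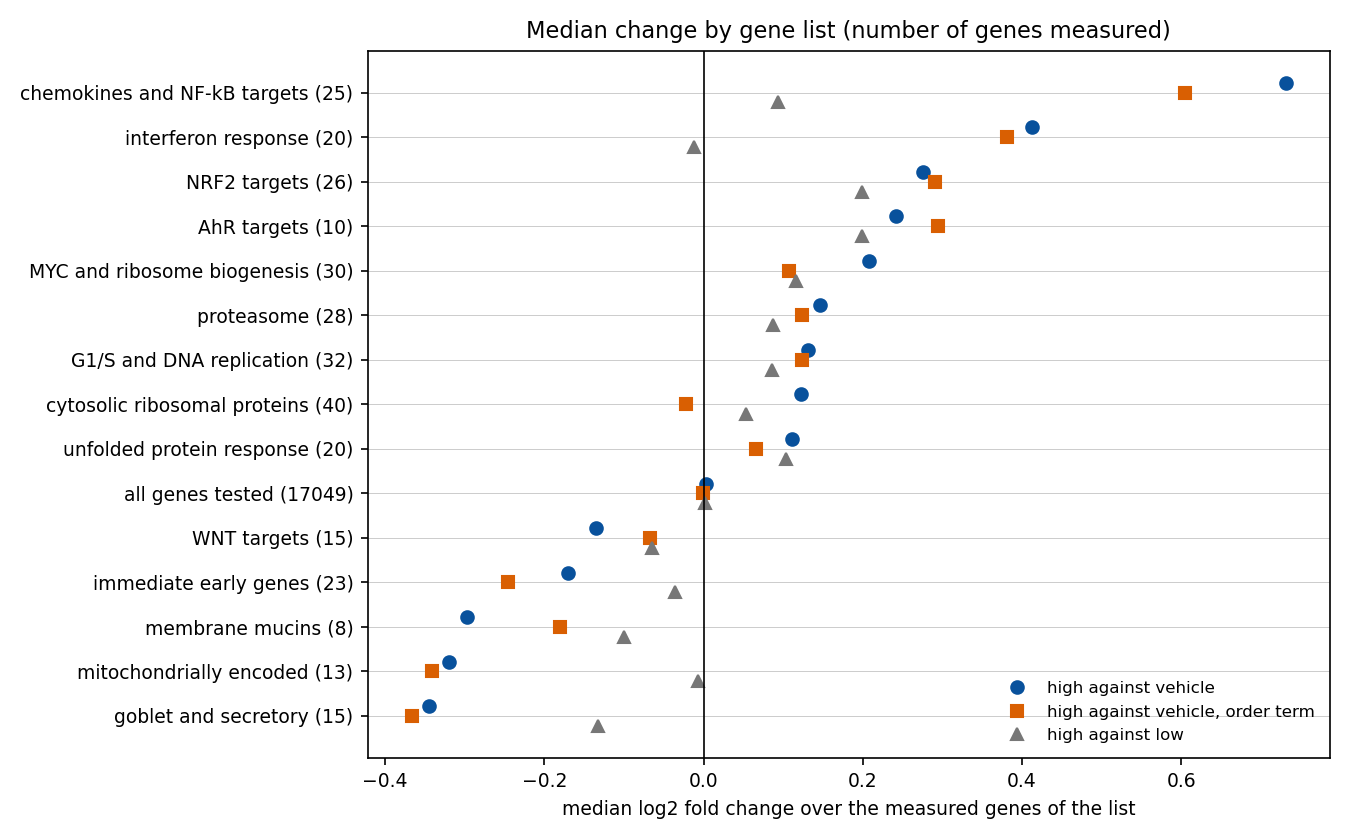
Median log2 change over the measured genes of 14 lists and over all 17049 genes tested, for Soyo-san at 500 µg/mL against vehicle without (circles) and with (squares) the order term and against Soyo-san at 20 µg/mL (triangles). The chemokine and NF-κB list lies at 0.73 and 0.60 against vehicle and at 0.09 between doses, while NRF2 targets lie at 0.28, 0.29 and 0.20.

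In other listed pathways most members did not pass. Of 24 cholesterol synthesis genes 3 rose and none fell (background 8.03% and 6.43%, for each list of this paragraph), with a median log2 change of 0.01. The count was 1 without high-dose replicate 1, high-dose replicate 2 or vehicle replicate 1 and 0 without vehicle replicate 3. Of 29 glycolysis and hypoxia genes 6 rose and none fell, 2 without high-dose replicate 1, with a median of 0.04. Of 20 p53 pathway genes 2 fell and none rose, with a median of -0.01, and none fell without high-dose replicate 3.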

How the data were processed

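HT29 RNA with an integrity number over 7 was sequenced in pairs of 100 bp reads, according to the labels' protocols. The table deposited by the authors holds RSEM expected counts (RSEM 1.3.3; STAR 2.7.3a, Trim Galore 0.6.5, FastQC 0.11.9 and the build GRCh38 are listed as well in the submitters' processing notes). Annotation release and strand setting were not given in the sources used here. RSEM splits a read among the genes it matches, which bears on near-identical, overlapping and read-through genes. The table has 60675 identifiers and 60 unscaled libraries, and its values were rounded before testing.

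Columns were assigned through the sample descriptions, and groups through titles and characteristics. In R 4.3.3, edgeR 4.0.16 fitted a robust quasi-likelihood model to 57 libraries (19 groups of 3, 38 residual degrees of freedom) after TMM scaling. The function filterByExpr kept 17049 genes. Soshiho-tang, with 1 library per dose, was left out. P-values were adjusted by Benjamini-Hochberg over all tested genes, and 0.05 was the threshold. Each SE is the log2 change divided by the root of its test statistic, and CPM rest on TMM-scaled totals. A gene name table gave symbols for 14975 tested genes, and GENCODE release 29 gave coordinates for 16929. The fitting code was tested on simulated counts. The order term marks the earlier or later part of the library numbering, parted by the sign of the first principal component.

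Alternatives were scaling by DESeq2's size factors, testing without the count filter, the test of DESeq2 1.42.0, fits restricted to the 2 groups or to later-numbered libraries, a replicate block, the order term, and omission of each library in turn. Same-numbered libraries were checked for pairing and were not treated as pairs.

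The comparison and the gene lists, written from general knowledge of pathways, were chosen with earlier results of these data known. A rule named the genes. Among protein-coding genes past the threshold whose groups were apart and which averaged at least 5 CPM in the group where they were higher, it took the 10 largest changes each way against vehicle, the 10 largest each way that also passed with the order term and against the low dose, the 5 largest each way against the low dose and against Okbyeongpung-san, the 4 smallest p-values of each list, and 20 fixed readouts. It named 198 genes, of which 131 are not described here.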

Additional observations from a re-analysis of the deposited data

How the results depend on the processing

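Against vehicle the high-dose count of 2466 stayed within 1.5 times under DESeq2's size factors (2395), no filter (2314), DESeq2 (2564) and a fit on the 2 groups alone (3243), fell to 1221 with the order term and to 922 with the order term and a replicate block, and ran from 1037 to 2375 with 1 library left out. The medium-dose count of 1682 was 506 with the order term and 653 to 1391 with 1 library left out. The low-dose count of 670 was 1078 without the filter, 1245 on the 2 groups alone and 182 to 415 with 1 library left out. For high against low dose the 22 genes became 36 with the order term, 164 without the filter, 6 on the later-numbered libraries alone, 11 on the 2 groups alone, 37 by DESeq2 and 0 to 80 with 1 library left out. All 18 of these genes that the text names lost their call without high-dose replicate 1 or without replicate 2, and none reversed in any alternative. Against Okbyeongpung-san the 0 genes became 95 without the filter, 1 on the later-numbered libraries alone, 2 on the 2 groups alone, 2 by DESeq2 and 0 to 10 with 1 library left out. The causes were not tested. Of single genes named against vehicle, those that changed sign were uncalled: MKI67 with the order term (-0.095) and with it and the block (-0.097), and CDKN1A (0.092 and 0.031).

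Same-numbered libraries of the high dose and vehicle shared little beyond their number (correlations of deviations from the group means 0.014, 0.0070 and 0.015, each library nearest to its own number in 3 of 3). The replicate block gave 2711 genes for high against vehicle, 30 for high against low, 0 against Okbyeongpung-san, 2017 for medium and 834 for low against vehicle.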
